A study of Homo sapiens with 6 samples.

Results

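NRF2, glutathione and ferroptosis genes were examined in the human prostate cancer cell line C4-2, as a set of 33 genes named by symbol. The set covers the transcription factor NRF2 and its inhibitor, the enzymes that make, recycle and use glutathione, the thioredoxin system, NADPH supply, iron storage and transport, and lipid enzymes of ferroptosis. All 33 symbols matched an Ensembl identifier, out of 62696 gene rows in the count files, and 32 had enough reads to be tested; AKR1B10 did not. C4-2 is a castration-resistant derivative of the prostate cancer line LNCaP. The study's question was what loss of the kinase CDK12 does to such cells. CDK12 pairs with cyclin K and phosphorylates RNA polymerase II. Bulk RNA sequencing was done on 3 CDK12KO libraries, from C4-2 cells in which CDK12 was targeted with CRISPR-Cas9, and on 3 VEC libraries, from the control C4-2 line carrying the vector, whose genotype label is WT. Both groups were grown untreated in RPMI1640 with fetal bovine serum. The labels do not say whether the knockout line is 1 clone or several, or whether replicates were separate cultures, so a p-value covers the spread among these libraries alone and that spread may be technical. Loss of CDK12 and any other difference between the 2 lines cannot be told apart.

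NRF2, the product of NFE2L2, is bound in the cytoplasm by KEAP1, an adaptor that delivers it to a cullin ubiquitin ligase for degradation. When oxidants or electrophiles modify KEAP1, NRF2 builds up, enters the nucleus, pairs with a small MAF protein and activates genes that carry antioxidant response elements. Its targets include the enzymes of glutathione synthesis, the thioredoxin system and the ferritins. Glutathione feeds the glutathione peroxidases, among which GPX4 reduces lipid hydroperoxides in membranes. Ferroptosis is a form of cell death in which iron drives lipid peroxidation faster than GPX4 and related systems can reverse it. Ferritin limits it by storing iron, and ACSL4 and LPCAT3 promote it by placing polyunsaturated fatty acids in membrane phospholipids.

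The libraries held 24660798 to 30732841 reads, with 16617644 to 21590817 counted in genes. CDK12KO2 stood apart from the other 5 libraries. Across genes its log2 CPM, read counts scaled to a common library size, correlated with theirs at r = 0.916 to 0.950, against 0.977 to 0.990 among the others. The median of 84 ribosomal protein genes lay 0.34, 1.67 and 0.38 log2 units above the VEC mean in CDK12KO1, CDK12KO2 and CDK12KO3. Results are therefore given with and without it. CDK12 RNA had 60.8, 56.9 and 56.5 CPM in CDK12KO libraries 1 to 3, against 60.2, 48.0 and 57.1 CPM in VEC libraries 1 to 3 (log2 fold change 0.08 ± 0.13 SE, adjusted p = 0.709). The series' title speaks of a knockdown and its design text of a knockout. The edited bases are not given in the labels, and a gene count does not see a small edit, so this does not check them. Markers of a prostate epithelial line were present in both groups: the prostate-specific antigen gene KLK3 had 4307, 5847 and 4459 CPM in CDK12KO and 5227, 5092 and 5238 CPM in VEC libraries, and the prostate homeobox gene HOXB13 had 425, 582 and 424 CPM in CDK12KO and 426, 449 and 411 CPM in VEC libraries. The 7 markers of blood, stromal and endothelial cells summed to 27.9 to 38.1 CPM in CDK12KO and 25.8 to 26.2 CPM in VEC libraries. CD3E and PECAM1 were at 0 in all 6 libraries, PTPRC and COL1A2 in every CDK12KO library, and nearly all of the sum was COL1A1 and VWF.

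Without CDK12KO2, 14 of the 32 tested members differed between CDK12KO and VEC, 8 higher and 6 lower, and the set moved in no common direction. Higher were the ferritin light chain FTL, the lipid peroxidase GPX4, superoxide dismutase SOD1, haem oxygenase HMOX1, thioredoxin TXN, the peroxiredoxins PRDX1 and PRDX2, and the transketolase TKT. Lower were GCLC, the catalytic subunit of the rate-limiting enzyme of glutathione synthesis, the ferroptosis enzymes ACSL4 and LPCAT3, the exporter ABCC1, the quinone reductase NQO1 and the thioredoxin reductase TXNRD1. The call was an adjusted p under 0.05 in edgeR's quasi-likelihood test, with Benjamini-Hochberg adjustment over all genes tested. All adjusted p-values here come from that test unless another is named. In the same fit 19.1% of 16339 genes were called, 10.2% higher and 8.88% lower, so 14 of 32 was a larger share than over all genes. The members' median log2 fold change was -0.06, and that of all genes was -0.01. Among genes with at least 50 counts in each library of 1 group, 13 of 26 members and 3069 of 11792 genes were called. The set was chosen with earlier results of these data known, so the shares are a description and carry no test.

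With all 6 libraries, 0 of the 32 members were called, and 9 (28.1%) had p under 0.05 before adjustment, against 21.7% of all genes. In that fit 0.596% of 15783 genes were called, 0.418% higher and 0.177% lower. DESeq2 called 4 members in the same libraries, GCLC and ACSL4 lower (adjusted p = 5.27e-05 and 0.00793) and FTL and HMOX1 higher (adjusted p = 0.0190 and 0.0237), and limma-voom called 0. Over all genes DESeq2 called 6.21%, against 12.5% of the members. The median log2 fold change of the members was 0.09, and that of all genes was 0.00. CPM ranges of the groups did not overlap for 18 members, 10 higher and 8 lower in CDK12KO, where 39.4% of all genes had ranges that did not overlap, 20.4% higher and 19.0% lower.

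**Figure D1:**
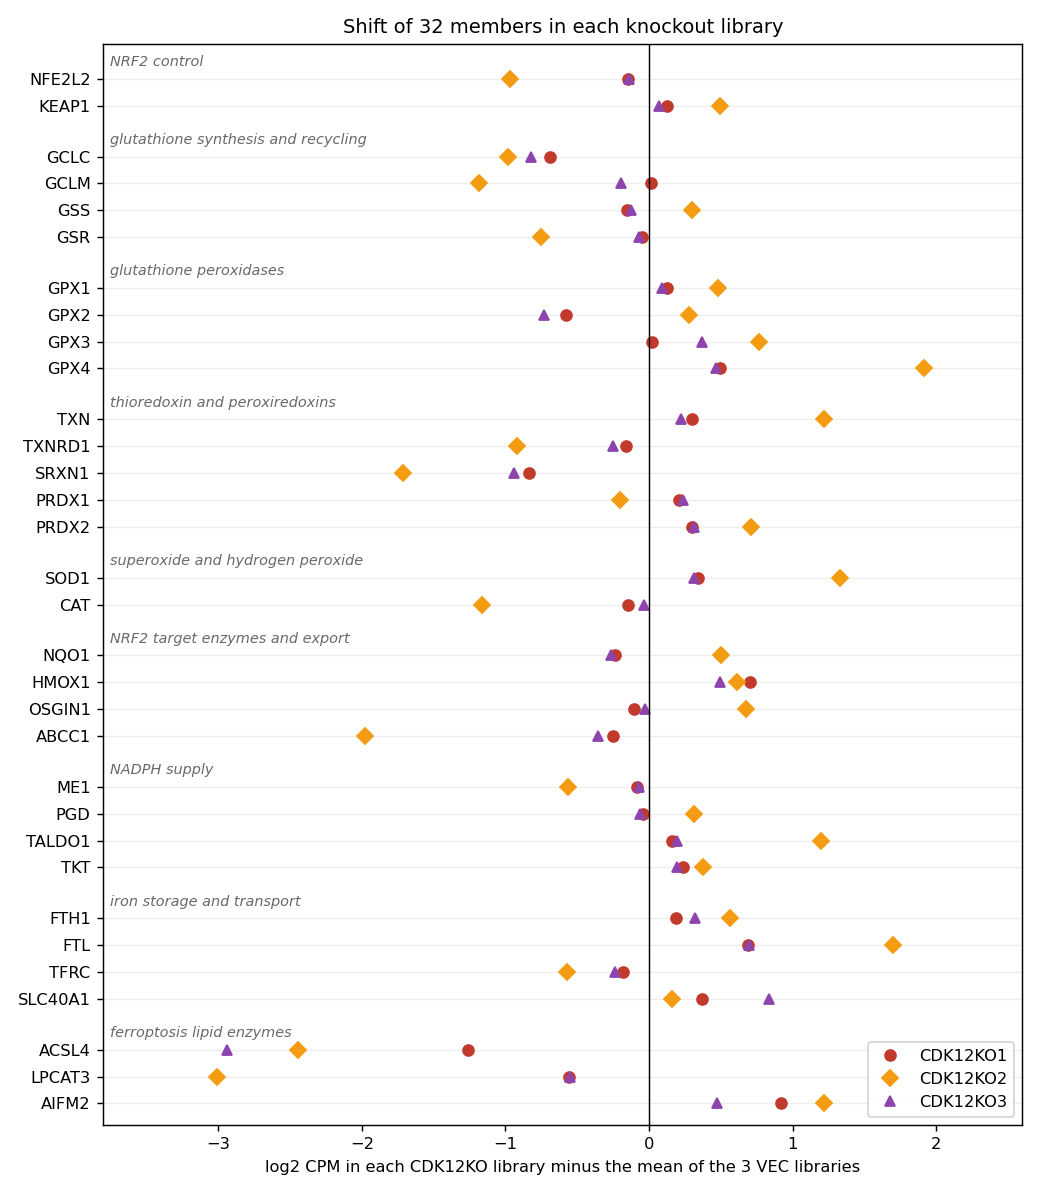
Shift of 32 members in each knockout library, as log2 CPM in that library minus the mean of the 3 VEC libraries, grouped by role (circles CDK12KO1, diamonds CDK12KO2, triangles CDK12KO3). CDK12KO1 and CDK12KO3 lie close together for most members. CDK12KO2 lies farther from 0 on the same side for FTL, GPX4 and SOD1, and on the other side for NQO1 and PRDX1. It is the knockout library nearest to 0 for PRDX1, SLC40A1 and GPX2, and lies between CDK12KO1 and CDK12KO3 for HMOX1 and ACSL4.

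CDK12KO2 carried larger shifts than the other knockout libraries. The median size of a member's shift from the VEC mean, sign ignored, was 0.222, 0.760 and 0.259 log2 units in CDK12KO1, CDK12KO2 and CDK12KO3. Shifts of more than 1 log2 unit were seen for 1, 12 and 1 members. Of the 14 members called without it, 12 were shifted to the same side in CDK12KO2, and for 11 of the 14 the shift was larger there than in both other knockout libraries. PRDX1 and NQO1 were on the opposite side, PRDX1 only as long as reads shared with an opposite-strand gene were left out.

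**Figure D2:**
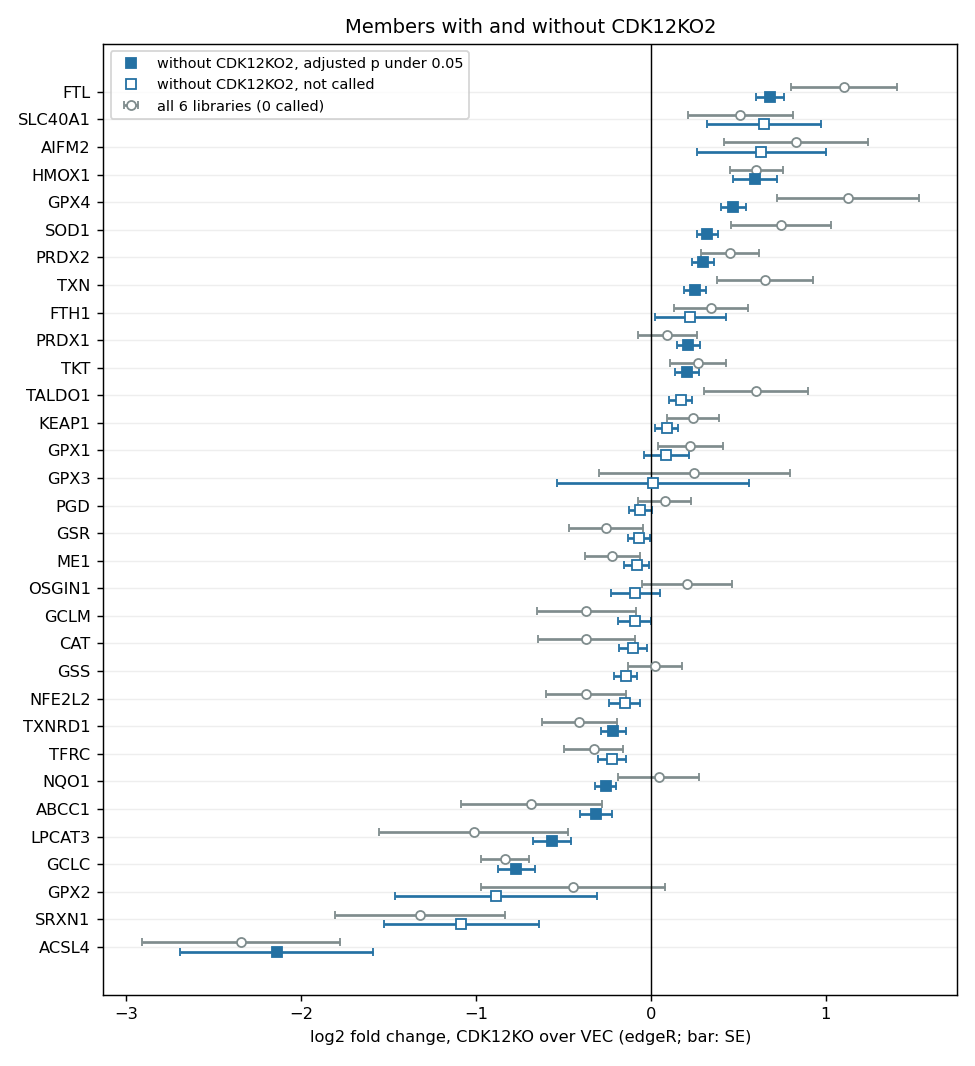
Log2 fold change of CDK12KO over VEC with its SE for 32 members, without CDK12KO2 (squares, filled where the adjusted p is under 0.05) and with all 6 libraries (circles, 0 called). GCLC and HMOX1 have nearly the same value in both fits, whereas the value of GPX4 is 0.47 without CDK12KO2 and 1.13 with it, and NQO1 changes sign.

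The pair that sets NRF2 itself did not pass the test in either fit. NFE2L2 (chr2:177227595-177392697, minus strand, GRCh38) had 49.1, 27.7 and 49.3 CPM in CDK12KO libraries 1 to 3, against 56.8, 49.8 and 56.6 CPM in VEC libraries 1 to 3. Its log2 fold change was -0.15 ± 0.09 without CDK12KO2 (adjusted p = 0.249) and -0.37 ± 0.23 with all libraries (adjusted p = 0.331). The 3 CDK12KO values lie under all VEC values, but CDK12KO3 and VEC2 are 49.3 and 49.8, a gap far smaller than the spread within VEC. These counts leave out reads that NFE2L2 shares with an opposite-strand gene. With such reads kept, CDK12KO libraries had 243, 351 and 247 CPM, against 261, 250 and 254 CPM in VEC libraries. CDK12KO2 was then the highest library, and the log2 fold change with all libraries was 0.14 ± 0.18 (adjusted p = 0.626). KEAP1 (chr19:10486120-10503741, minus strand) had 166, 215 and 159 CPM in CDK12KO, against 149, 156 and 151 CPM in VEC libraries (0.09 ± 0.06, adjusted p = 0.365 without CDK12KO2). NRF2 is regulated mostly as a protein, which RNA counts do not measure.

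The core of the antioxidant response element, written here as TGACNNNGC and searched on both strands, was looked for in RefSeq promoter windows (GRCh38.p14, 250 bases before to 50 after each start). It was found for 7 of the 25 members in that table (28.0%) and for 16.1% of all 27305 symbols. The set was built around NRF2 and includes known targets, so the choice of genes itself favours a larger share. The members that hold these letters in their windows are shown with 1 match each, since the letters are the core of the known NRF2 motif. Capitals mark the match, and the bases are printed on the gene's own strand. There the matches shown for TXNRD1 and ME1 read TGACNNNGC, and the others read its reverse complement GCNNNGTCA. A match to these letters is a description and not a binding site. No window was held for GSS, GSR, PRDX1, SOD1, HMOX1, AKR1B10, ABCC1 and FTH1, so these members were not searched. The stretches shown lie at chr19:10502783-10502812 for KEAP1, chr1:93909445-93909474 for GCLM, chr12:104215670-104215699 for TXNRD1, chr6:83431169-83431198 for ME1, chr1:10398853-10398882 for PGD, chr14:64942848-64942877 for GPX2 and chr10:70132828-70132857 for AIFM2.
KEAP1: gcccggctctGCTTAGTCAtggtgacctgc
GCLM: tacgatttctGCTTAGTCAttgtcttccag
TXNRD1: acacgggctaTGACTTCGCtgttgtcaccg
ME1: tctcctgccaTGACTCAGCgcttctcgcag
PGD: cctcgccgggGCAATGTCAtctaggtgctc
GPX2: acctgtttttGCTAAGTCAtcctggggatg
AIFM2: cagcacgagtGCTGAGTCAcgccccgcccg
Of these 7 genes 1, TXNRD1, was called without CDK12KO2, a share near that of all genes (19.1%). NQO1 and FTL, known NRF2 targets, do not hold these letters in their windows, which says nothing of the bases beyond.

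Glutathione synthesis and recycling held the fall with the smallest adjusted p of the set. GCLC, which joins glutamate to cysteine in the first and limiting step, is at chr6:53497341-53616970 on the minus strand. It had 24.6, 20.2 and 22.5 CPM in CDK12KO libraries 1 to 3, against 43.1, 36.3 and 40.7 CPM in VEC libraries 1 to 3. Every CDK12KO library was below every VEC library, and CDK12KO2 was close to the other knockout libraries here. The means were 22.4 ± 2.22 CPM in CDK12KO and 40.0 ± 3.45 CPM in VEC (SD, n = 3 each). Without CDK12KO2 the log2 fold change was -0.77 ± 0.11 (0.587 of the VEC level, adjusted p = 4.68e-05). With all 6 libraries it was -0.83 ± 0.14 and just missed the threshold (adjusted p = 0.0541). The other 3 genes of this role were not called, though each had a negative log2 fold change without CDK12KO2. GCLM, the modifier subunit that lowers the feedback inhibition of GCLC, had 44.8, 19.5 and 38.8 CPM in CDK12KO and 42.8, 42.3 and 48.1 CPM in VEC libraries (-0.09 ± 0.10, adjusted p = 0.548 without CDK12KO2); CDK12KO1 lay within the VEC range, CDK12KO3 a little under it and CDK12KO2 far under it. GSS, which adds glycine in the second step, had 145, 198 and 148 CPM in CDK12KO and 164, 165 and 155 CPM in VEC libraries (-0.15 ± 0.07, adjusted p = 0.132), with CDK12KO1 and CDK12KO3 below all VEC libraries. GSR, the reductase that regenerates glutathione with NADPH, had 441, 271 and 435 CPM in CDK12KO and 435, 483 and 454 CPM in VEC libraries (-0.07 ± 0.06, adjusted p = 0.514). Whether GCLC differed from GCLM in its response was not tested.

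The RefSeq promoter of GCLC is printed because no other member was called lower without CDK12KO2 in all 15 alternatives tried. It covers chr6:53545052-53545351 (GRCh38.p14, minus strand), is 62.7% G and C, and does not contain TGACNNNGC in either orientation. Capitals mark a TATAAA box. These letters or their reverse complement TTTATA were present in 11.5% of all promoter windows.
GCLC: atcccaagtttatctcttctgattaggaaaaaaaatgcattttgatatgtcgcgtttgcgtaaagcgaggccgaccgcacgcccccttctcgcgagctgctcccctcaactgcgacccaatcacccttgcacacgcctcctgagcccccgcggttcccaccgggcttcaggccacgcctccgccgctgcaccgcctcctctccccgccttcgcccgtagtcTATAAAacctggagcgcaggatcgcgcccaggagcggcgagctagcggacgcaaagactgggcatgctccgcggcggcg

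Of the 4 glutathione peroxidases, GPX4 was higher and the others were not called. GPX4 (chr19:1103926-1106791, plus strand) had 508, 1366 and 500 CPM in CDK12KO libraries 1 to 3, against 344, 401 and 342 CPM in VEC libraries 1 to 3. All 3 CDK12KO libraries were above all VEC libraries, CDK12KO2 by far the most. Without CDK12KO2 the log2 fold change was 0.47 ± 0.07 (1.39-fold, adjusted p = 0.000106), and with it 1.13 ± 0.40 (adjusted p = 0.211). GPX1, the main cytosolic peroxidase, had 25.3, 32.3 and 24.7 CPM in CDK12KO and 21.5, 28.6 and 20.2 CPM in VEC libraries (0.09 ± 0.13, adjusted p = 0.690 without CDK12KO2). GENCODE 29 lists it as a polymorphic pseudogene. GPX2, the gastrointestinal form, and GPX3, the secreted form, stayed between 0.280 and 1.26 CPM in all 6 libraries, too few reads to resolve a modest difference.

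In the thioredoxin system, thioredoxin and both peroxiredoxins were higher without CDK12KO2 and the reductase was lower. TXN (chr9:110243811-110256640), the small disulfide reductase, had 291, 551 and 276 CPM in CDK12KO, against 231, 248 and 233 CPM in VEC libraries (0.25 ± 0.06, adjusted p = 0.00799). TXNRD1 (chr12:104215779-104350305), the selenoenzyme that recharges thioredoxin, had 287, 169 and 270 CPM in CDK12KO, against 343, 294 and 327 CPM in VEC libraries (-0.21 ± 0.07, adjusted p = 0.0413). For both genes the groups did not overlap, and CDK12KO2 was the most extreme library. PRDX2 (chr19:12796820-12801859), a cytosolic peroxiredoxin that reduces hydrogen peroxide, had 386, 516 and 391 CPM in CDK12KO and 311, 333 and 301 CPM in VEC libraries (0.30 ± 0.06, adjusted p = 0.00262). PRDX1 (chr1:45511036-45523047), its close relative, had 555, 418 and 565 CPM in CDK12KO and 497, 488 and 457 CPM in VEC libraries (0.21 ± 0.06, adjusted p = 0.0225). CDK12KO2 was the lowest of the 6 libraries for PRDX1, and with it the value was 0.09 ± 0.17 (adjusted p = 0.735). When reads shared with an opposite-strand gene were kept, CDK12KO2 was instead the highest library for PRDX1, at 1426 CPM. With all libraries the value was then 0.64 ± 0.22 (adjusted p = 0.222). SRXN1, which repairs overoxidised peroxiredoxins, had 0.897, 0.440 and 0.827 CPM in CDK12KO and 0.972, 1.74 and 2.80 CPM in VEC libraries and was not called (-1.08 ± 0.44, adjusted p = 0.0966).
These calls rested on few libraries. When 1 more library was left out, TXN was lost without CDK12KO1 (adjusted p = 0.192) and without CDK12KO3 (0.0616), and PRDX2 likewise (0.0521 and 0.0645). PRDX1 was lost without CDK12KO1, CDK12KO3 or VEC3 (0.169, 0.221 and 0.0621). TXNRD1 was lost without VEC1, VEC3, CDK12KO1 or CDK12KO3 (0.228, 0.102, 0.122 and 0.376). Where a knockout library was left out in addition to CDK12KO2, 1 CDK12KO library remained, which the fit assumes to vary like the others.

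Superoxide dismutase SOD1 was higher and catalase was not called. SOD1 (chr21:31659622-31668931), which turns superoxide into hydrogen peroxide in the cytosol, had 289, 574 and 284 CPM in CDK12KO, against 229, 226 and 231 CPM in VEC libraries. The VEC values lie within a few CPM of each other and all CDK12KO values are above them. The log2 fold change was 0.32 ± 0.06 without CDK12KO2 (1.25-fold, adjusted p = 0.000956) and 0.74 ± 0.28 with it (adjusted p = 0.217). CAT, the peroxisomal enzyme that breaks hydrogen peroxide down, had 85.1, 42.2 and 91.9 CPM in CDK12KO and 102, 86.9 and 95.0 CPM in VEC libraries (-0.10 ± 0.08, adjusted p = 0.410 without CDK12KO2).

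**Figure D3:**
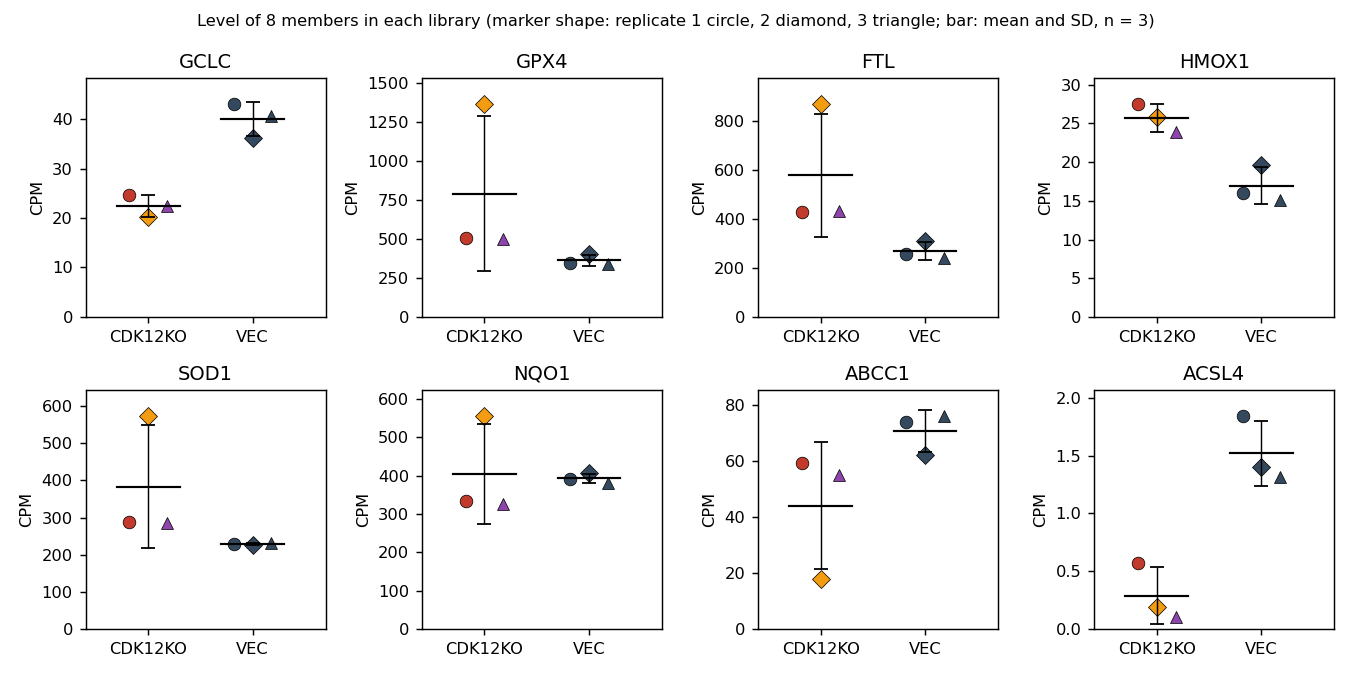
CPM of 8 members in each library, scaled over all 6 libraries, with the mean and SD of each group (n = 3; circle, diamond and triangle for replicates 1, 2 and 3; each panel has its own axis from 0). GCLC, GPX4, FTL, HMOX1, SOD1, ABCC1 and ACSL4 have groups that do not overlap, and for NQO1 CDK12KO2 is above all VEC libraries while CDK12KO1 and CDK12KO3 are below them.

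Classical NRF2 target enzymes moved in different directions. HMOX1 (chr22:35380361-35394214), which opens haem and frees its iron, had 27.5, 25.9 and 23.8 CPM in CDK12KO, against 16.1, 19.6 and 15.2 CPM in VEC libraries. The groups did not overlap and CDK12KO2 lay between the other knockout libraries. Its log2 fold change was 0.59 ± 0.12 without CDK12KO2 (1.51-fold, adjusted p = 0.0023) and 0.60 ± 0.15 with all libraries (adjusted p = 0.146); without CDK12KO1 as well, the adjusted p was 0.0808. NQO1 (chr16:69706996-69726951), a quinone reductase often used as a readout of NRF2, had 333, 556 and 327 CPM in CDK12KO, against 392, 406 and 382 CPM in VEC libraries. Its direction depended on CDK12KO2. Without that library the log2 fold change was -0.26 ± 0.06 (adjusted p = 0.00617), and with it 0.04 ± 0.23 (adjusted p = 0.912). The call was also lost without CDK12KO1 (adjusted p = 0.0773) or CDK12KO3 (adjusted p = 0.145). ABCC1 (chr16:15949577-16143074), a pump that exports glutathione conjugates, had 59.1, 17.8 and 55.0 CPM in CDK12KO, against 74.0, 62.1 and 76.0 CPM in VEC libraries (-0.32 ± 0.09, adjusted p = 0.0194 without CDK12KO2). All CDK12KO values were below all VEC values, but the call was lost when VEC1, VEC3, CDK12KO1 or CDK12KO3 was left out too (adjusted p = 0.0808, 0.0936, 0.0671 and 0.232). OSGIN1, an oxidative stress induced growth inhibitor, had 17.3, 29.8 and 18.2 CPM in CDK12KO and 16.4, 23.3 and 16.7 CPM in VEC libraries (-0.09 ± 0.14, adjusted p = 0.715). AKR1B10, an aldo-keto reductase, had 1, 1 and 0 reads in CDK12KO and 0, 0 and 3 reads in VEC libraries, too few to give a fold.

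Of the enzymes around NADPH supply, the transketolase TKT (chr3:53224707-53256052) alone was called. It had 829, 916 and 807 CPM in CDK12KO, against 722, 757 and 640 CPM in VEC libraries, with no overlap (0.21 ± 0.07, adjusted p = 0.0470 without CDK12KO2). The adjusted p lay just under the threshold and was under it in 6 of 15 alternatives, and it was 0.0919, 0.140, 0.315 and 0.199 when VEC1, VEC3, CDK12KO1 or CDK12KO3 was left out as well. TALDO1, the transaldolase that works beside it in the non-oxidative pentose phosphate pathway, had 456, 939 and 468 CPM in CDK12KO and 398, 440 and 389 CPM in VEC libraries (0.17 ± 0.07, adjusted p = 0.0793). PGD, which makes NADPH in the oxidative branch, had 233, 298 and 229 CPM in CDK12KO and 247, 246 and 226 CPM in VEC libraries (-0.06 ± 0.07, adjusted p = 0.573). ME1, the cytosolic malic enzyme, had 80.1, 57.4 and 80.8 CPM in CDK12KO and 86.6, 82.1 and 85.6 CPM in VEC libraries (-0.08 ± 0.07, adjusted p = 0.472).

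Among iron genes, the ferritin light chain was the rise with the smallest adjusted p of the set. FTL (chr19:48965301-48966878, plus strand) had 429, 867 and 432 CPM in CDK12KO, against 255, 308 and 241 CPM in VEC libraries. All CDK12KO values were above all VEC values. The log2 fold change was 0.68 ± 0.08 without CDK12KO2 (1.60-fold, adjusted p = 1.02e-05) and 1.10 ± 0.30 with it (adjusted p = 0.164). FTH1, the heavy chain that oxidises iron for storage, is at chr11:61959718-61967660. It had 502, 653 and 553 CPM in CDK12KO and 396, 571 and 381 CPM in VEC libraries, with overlap through VEC2 (0.23 ± 0.20, adjusted p = 0.527 without CDK12KO2). When reads shared with an overlapping gene were kept, FTH1 was higher without CDK12KO2 (0.58 ± 0.08, adjusted p = 8.56e-06). TFRC (chr3:196027183-196082189), the receptor that brings transferrin iron into cells, had 306, 234 and 295 CPM in CDK12KO and 369, 302 and 378 CPM in VEC libraries (-0.22 ± 0.08, adjusted p = 0.0616). SLC40A1, the iron exporter ferroportin, had 1.84, 1.57 and 2.59 CPM in CDK12KO and 1.38, 1.57 and 1.26 CPM in VEC libraries (0.65 ± 0.32, adjusted p = 0.181). FTL, FTH1, GPX4, PRDX1 and TXN have processed pseudogenes, and reads with more than 1 alignment were left uncounted, so their counts are uncertain to that extent; such reads were 6.49% to 8.73% of all reads over the 6 libraries.

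The FTL promoter is printed beside that of GCLC as the promoter of the called gene that moved the other way. It covers chr19:48965059-48965358 (RefSeq, GRCh38.p14, plus strand), is 66.3% G and C, and does not contain TGACNNNGC in either orientation. Capitals mark GGGCGG and its reverse complement CCGCCC, letters that 45.0% of all windows hold in at least 1 orientation.
FTL: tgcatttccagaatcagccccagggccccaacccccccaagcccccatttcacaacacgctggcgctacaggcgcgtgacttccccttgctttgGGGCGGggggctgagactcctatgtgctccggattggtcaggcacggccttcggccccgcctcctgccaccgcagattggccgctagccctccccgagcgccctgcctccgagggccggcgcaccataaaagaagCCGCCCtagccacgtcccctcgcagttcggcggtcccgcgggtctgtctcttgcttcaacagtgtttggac

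All 4 iron genes carry iron-responsive elements, RNA hairpins through which iron regulatory proteins block translation of ferritin and ferroportin messages and protect the transferrin receptor message from decay when iron is low. The search was for a C, any 5 bases, the loop CAGTGN and 5 bases able to pair with those before the loop (G-T pairs allowed), on the transcript strand, in 1 GENCODE 29 transcript per coding gene. It was found in 4 of 32 members (12.5%) and in 251 of 19832 transcripts (1.27%). These 32 leave out GPX1, listed as a pseudogene, and include the untested AKR1B10. The 4 are the iron genes of the set, known carriers of this element, so the larger share was fixed in advance. The sites are shown because these genes share this control outside NRF2; capitals mark the loop. In FTL the loop begins at base 47 of 878, in FTH1 at base 71 of 1229 and in SLC40A1 at base 211 of 3442, all near the start of the message. The TFRC matches lie far downstream, the first at base 3400 of 5111.
FTL: ctcttgcttcaaCAGTGTttggacggaaca
FTH1: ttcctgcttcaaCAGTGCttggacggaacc
SLC40A1: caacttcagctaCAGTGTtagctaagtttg
TFRC site 1: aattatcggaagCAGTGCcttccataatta
TFRC site 2: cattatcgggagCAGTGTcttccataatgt
TFRC site 3: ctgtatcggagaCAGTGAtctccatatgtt
TFRC site 4: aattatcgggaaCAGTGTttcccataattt
Within these 4 genes only FTL was called in the unstranded counts.

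Of the ferroptosis lipid enzymes, ACSL4 and LPCAT3 were lower without CDK12KO2. ACSL4 (chrX:109624244-109733403), which activates arachidonic acid for phospholipids, was nearly silent in these cells. It had 12, 3 and 2 reads in CDK12KO libraries 1 to 3, against 36, 25 and 24 reads in VEC libraries 1 to 3, which are 0.566, 0.189 and 0.103 CPM in CDK12KO and 1.84, 1.40 and 1.32 CPM in VEC libraries. The groups did not overlap in either unit. The log2 fold change was -2.14 ± 0.55 without CDK12KO2 (adjusted p = 0.01) and -2.34 ± 0.57 with all libraries (adjusted p = 0.142). Without CDK12KO3 as well it was -1.42 (adjusted p = 0.151), so the call leaned on that library. LPCAT3 (chr12:6976186-7018510), which inserts such acyl chains into phospholipids, had 18.4, 3.27 and 18.5 CPM in CDK12KO, against 28.3, 27.5 and 25.7 CPM in VEC libraries (-0.57 ± 0.11, adjusted p = 0.0011 without CDK12KO2). When reads shared with an overlapping gene were kept, LPCAT3 was not called (-0.14 ± 0.07, adjusted p = 0.177). AIFM2, also called FSP1, which reduces coenzyme Q in membranes and so opposes ferroptosis, had 2.64, 3.27 and 1.91 CPM in CDK12KO and 2.00, 0.728 and 1.65 CPM in VEC libraries, with overlap (0.63 ± 0.37, adjusted p = 0.253).

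For 7 members the counting column mattered, since they share positions with a gene on the opposite strand. The stranded columns had nearly equal sums, so the reads carry no strand, and the unstranded column drops reads that fall in both genes. The sum of both stranded columns, an alternative added after the data were seen, keeps such reads but gives them to both genes. The unstranded count was 15.0% of that sum for LPCAT3, 15.5% for NFE2L2, 15.9% for FTH1, 40.9% for PRDX2, 47.9% for PRDX1, 87.1% for GCLC and 89.1% for NQO1. The sum may include reads of the other gene, so these are not shares of the member's own reads. In the sum FTH1, which overlaps BEST1, had 2817, 5325 and 2740 CPM in CDK12KO, against 1800.4, 2086 and 1671 CPM in VEC libraries. The groups no longer overlapped and FTH1 was higher without CDK12KO2 (0.58 ± 0.08, adjusted p = 8.56e-06), beside 0.68 ± 0.08 for FTL. In the unstranded counts BEST1 had 7.13, 5.60 and 9.41 CPM in CDK12KO and 5.12, 4.70 and 4.78 CPM in VEC libraries. LPCAT3, which overlaps EMG1, had 111, 116 and 109 CPM in CDK12KO and 120, 132 and 112 CPM in VEC libraries. The groups overlapped there. In the unstranded counts EMG1 had 4.53, 27.9 and 5.53 CPM in CDK12KO and 4.66, 7.67 and 6.87 CPM in VEC libraries, so its highest library was CDK12KO2, where LPCAT3 was lowest.
PRDX1, which overlaps MMACHC, had 912, 1426 and 918 CPM in CDK12KO and 715, 704 and 676 CPM in VEC libraries in that sum. CDK12KO2 then lay on the same side as the other knockout libraries (0.39 ± 0.06, adjusted p = 9.36e-05 without CDK12KO2). NFE2L2 had 243, 351 and 247 CPM in CDK12KO and 261, 250 and 254 CPM in VEC libraries (-0.06 ± 0.06, adjusted p = 0.525). CDK12KO2, its lowest library in the unstranded counts, was its highest there. GCLC (-0.82 ± 0.11, adjusted p = 7.30e-06), PRDX2 (0.31 ± 0.06, adjusted p = 0.000955) and NQO1 (-0.30 ± 0.06, adjusted p = 0.00147) kept their calls. In this column 15 of 32 members were called without CDK12KO2, 9 higher and 6 lower, where 20.6% of 18429 genes were called. With all 6 libraries 0 of 32 members were called, where 0.436% of 17909 genes were.

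**Figure D4:**
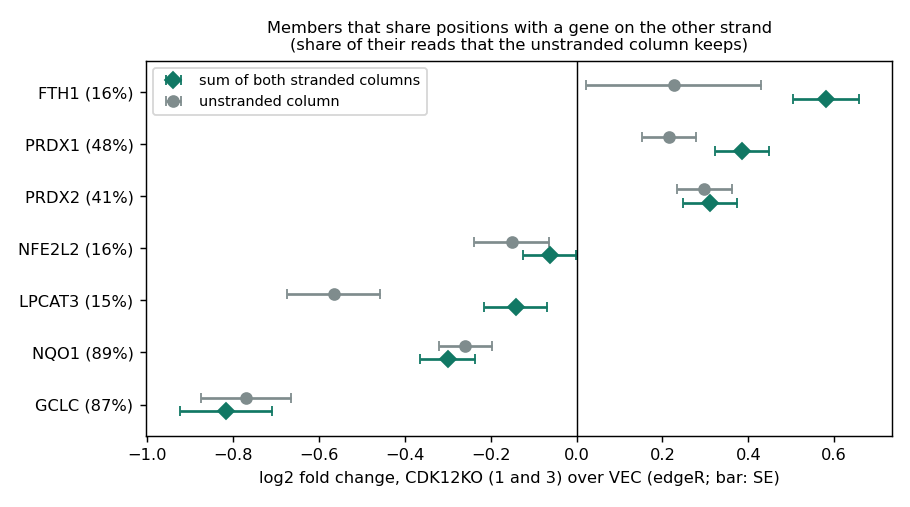
Log2 fold change of CDK12KO (libraries 1 and 3) over VEC with its SE for the 7 members that share positions with a gene on the other strand, from the sum of both stranded columns (diamonds) and from the unstranded column (circles). FTH1 is at 0.58 in the summed columns and 0.23 in the unstranded one, and LPCAT3 at -0.14 and -0.57.

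Shifts of the members followed transcript length in every knockout library. Spearman's rho between a member's shift and the length of its transcript was -0.491, -0.686 and -0.521 in CDK12KO1, CDK12KO2 and CDK12KO3 over 32 members, as a description, since these genes share the libraries. Over 15250 genes it was -0.225, -0.393 and -0.283. The 10 members with transcripts under 1500 bases, among them FTL, GPX4, SOD1, TXN and both peroxiredoxins, had median shifts of 0.25, 0.96 and 0.27 log2 units. The 22 members with longer transcripts, among them GCLC, TXNRD1, ABCC1 and ACSL4, had medians of -0.12, -0.57 and -0.10. In CDK12KO2, 9 of the 10 short members were above the VEC mean, as were 10 of the 22 long ones. After each library was corrected for its trend over length and GC content, GCLC, FTL, GPX4 and SOD1 were still called without CDK12KO2, while PRDX1, TXNRD1 and TKT were not (adjusted p = 0.190, 0.103 and 0.0596). The part of RNA quality or library preparation in these shifts was not tested.

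**Figure D5:**
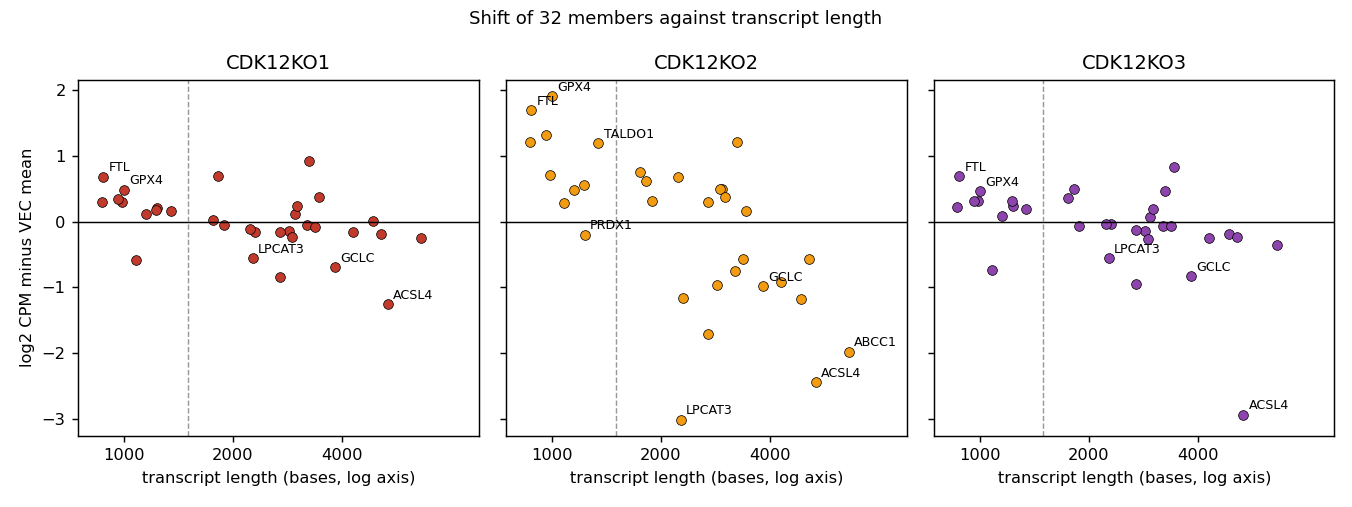
Shift of 32 members (log2 CPM minus the VEC mean) against transcript length in bases, on a log axis, in each knockout library; the dashed line is at 1500 bases. Members with short transcripts lie mostly above 0 and many with long transcripts below it, with the steepest spread in CDK12KO2.

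Over the alternatives without CDK12KO2, FTL, GCLC, GPX4 and SOD1 were called in all 15, with adjusted p-values up to 0.000238, 0.00294, 0.00527 and 0.0432. These included DESeq2 and its size factors, limma-voom, both filters, the replicate block, the length correction, the stranded columns and leaving out each further library. Against the fit with all 6 libraries, GCLC was called in 5 of 16 alternatives, 1 of which is the fit without CDK12KO2 itself. The others included no filter (adjusted p = 0.0175), the stricter filter (0.0485) and the length and GC correction (-0.65, 0.0428).

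Levels between members were compared as CPM per kilobase of transcript. The most abundant messages in VEC cells were PRDX1 (415 in CDK12KO and 389 in VEC libraries), FTH1 (463 and 366), GPX4 (790 and 362), PRDX2 (437 and 319) and FTL (656 and 305), as means of 3 libraries. Without CDK12KO2 the CDK12KO mean of GPX4 was 503 and that of FTL 490.4. The numbers of FTH1, PRDX1 and PRDX2 leave out the reads dropped in the unstranded column. Below them came TALDO1, TXN, SOD1 and TKT, between 283 and 461 per kilobase in CDK12KO and between 235 and 304 in VEC libraries. GCLC, at 5.89 in CDK12KO and 10.5 in VEC libraries, and HMOX1, at 14.1 and 9.31, were far less abundant. HMOX1 was above GCLC in every CDK12KO library and below it in VEC1 and VEC3 but not in VEC2, where HMOX1 was at 10.8 and GCLC at 9.51. SRXN1, GPX2, GPX3, AIFM2, SLC40A1, ACSL4 and AKR1B10 were under 1 per kilobase in VEC cells. In bulk RNA, fewer cells that express a gene and less RNA per cell cannot be told apart.

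Of 135 further genes of these pathways in 6 lists, 122 were tested without CDK12KO2 and 40 were called, 24 higher and 16 lower, against the 19.1% of all genes. With all 6 libraries 0 of 120 were called by edgeR and 0 by limma-voom. Before adjustment 36 had p under 0.05 (30%, against 21.7% of all genes), and DESeq2 called 11 (9.17%, against 6.21% of all genes). The genes named below, up to 4 in each list, are those with the smallest adjusted p without CDK12KO2, and their values are from that fit. For CUL3, NFE2L1, DPP3, CARS1 and SELENOP the summed stranded columns held 1.76, 1.27, 1.11, 1.24 and 2.42 times the unstranded reads, so reads shared with an opposite-strand gene are left out of their counts.

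Around NRF2 itself 3 of 12 genes were lower and 0 higher, together 25.0% beside the 19.1% of all genes. CUL3, the cullin that KEAP1 uses to mark NRF2 for degradation, had 28.4, 5.16 and 26.9 CPM in CDK12KO, against 43.4, 39.6 and 41.2 CPM in VEC libraries (-0.59 ± 0.10, adjusted p = 0.000261). NFE2L1, a related factor that drives proteasome genes, was also lower (-0.25 ± 0.07, adjusted p = 0.0144), as was DPP3, a protein known to bind KEAP1 (-0.23 ± 0.07, adjusted p = 0.0278). Among NRF2 targets and conjugating enzymes 7 of 25 were higher and 3 lower (40.0% called). The aldo-keto reductase AKR1C2 had 3.63, 4.28 and 2.28 CPM in CDK12KO, against 0.819, 0.616 and 0.824 CPM in VEC libraries (1.96 ± 0.35, adjusted p = 0.000645; with all libraries adjusted p = 0.0512). It has close paralogs, AKR1C1 and AKR1C3, so its reads are uncertain. The microsomal glutathione transferase MGST3 (0.68 ± 0.10, adjusted p = 5.89e-05) and the epoxide hydrolase EPHX1 (0.35 ± 0.07, adjusted p = 0.000892) were higher, and FECH, which inserts iron into haem, was lower (-0.45 ± 0.07, adjusted p = 0.000235).

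In the list of further glutathione, thioredoxin and peroxide enzymes 7 of 29 were higher and 2 lower (31.0% called, against 19.1% of all genes). PRDX5, a peroxiredoxin of mitochondria and peroxisomes, had 193, 523 and 205 CPM in CDK12KO, against 117, 126 and 123 CPM in VEC libraries (0.70 ± 0.07, adjusted p = 5.56e-07). CHAC1, which breaks down glutathione and is a target of the stress factor ATF4, had 40.6, 59.3 and 40.2 CPM in CDK12KO, against 23.6, 23.3 and 22.9 CPM in VEC libraries (0.79 ± 0.10, adjusted p = 1.21e-05). CTH, which makes cysteine from cystathionine (0.86 ± 0.16, adjusted p = 0.00108), and GGCT, which acts in the breakdown of gamma-glutamyl peptides (0.47 ± 0.09, adjusted p = 0.00146), were higher too. For CTH the groups overlapped once CDK12KO2 was counted. Of 12 genes of selenoproteins and their synthesis 4 were higher and 0 lower (33.3% called), namely SELENOW (0.47 ± 0.07, adjusted p = 0.000102), PSTK, a kinase of the selenocysteine pathway (0.56 ± 0.12, adjusted p = 0.00238), SELENOK (0.35 ± 0.08, adjusted p = 0.00691) and the secreted SELENOP (0.54 ± 0.13, adjusted p = 0.00756).

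In the iron list 1 of 21 genes was higher and 4 were lower, together 23.8% and so near the 19.1% of all genes. The metal importers SLC39A8, at 78.7, 74.9 and 76.9 CPM in CDK12KO and 115, 106 and 108 CPM in VEC libraries (-0.50 ± 0.07, adjusted p = 8.01e-05), and SLC11A2 (-0.32 ± 0.08, adjusted p = 0.0117) were lower, as was the mitochondrial iron importer SLC25A37 (-0.26 ± 0.07, adjusted p = 0.0134). The iron-sulfur scaffold ISCU was higher (0.28 ± 0.08, adjusted p = 0.0148). In the ferroptosis lipid list 5 of 23 were higher and 4 lower (39.1% called). DPP4, a surface peptidase tied to ferroptosis in colorectal cancer cells, had 135, 118 and 128 CPM in CDK12KO, against 219, 194 and 207 CPM in VEC libraries (-0.66 ± 0.07, adjusted p = 3.28e-06). The acyl-CoA synthetases ACSL1 (-0.60 ± 0.08, adjusted p = 4.06e-05) and ACSL3 (-0.48 ± 0.07, adjusted p = 4.57e-05) were lower like ACSL4. Per kilobase of transcript they stood at 31.4 and 29.4 CPM in CDK12KO and 55.6 and 46.8 CPM in VEC libraries, where ACSL4 was under 1. ACSL3, which activates monounsaturated acids, had 197, 119 and 186 CPM in CDK12KO, against 271, 254 and 272 CPM in VEC libraries. The cysteinyl-tRNA synthetase CARS1 was higher (0.52 ± 0.08, adjusted p = 8.49e-05).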

How the data were processed

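Per the labels, libraries were made from total RNA of C4-2 cells with a SMARTer mRNA kit. Reads were processed with FastQC and STAR on GRCh38, per the submitters' processing notes. Neither tool versions nor the annotation release is given here by the sources used. The authors deposited whole-number read counts per gene, not normalised, in STAR's layout with 1 unstranded and 2 stranded columns. The unstranded column was used, and since reads carry no strand, those of a gene and of its antisense gene cannot be separated. Summary rows entered neither library sizes nor tests. They held 12.2%, 14.4% and 12.2% ambiguous reads in CDK12KO libraries 1 to 3, against 11.6%, 11.2% and 11.1% in VEC libraries 1 to 3, and over all libraries 3.62% to 7.45% outside genes, 6.49% to 8.73% multimapping and 4.07% to 5.51% unmapped. Groups and replicate numbers come from the titles.

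The 33 members, the other lists and the tests were chosen with earlier results of these data known. Members were matched by unversioned identifier (62672 of 62696 rows named). Coordinates and transcript length are from GENCODE 29, which matched 15250 of 15783 tested genes (96.6%) and need not be the release the authors counted on. Named genes are all members, CDK12 and up to 4 genes of each further list with the smallest adjusted p under 0.05 without CDK12KO2. The fits used edgeR 4.0.16 in R 4.3.3, with filterByExpr, TMM factors and a robust quasi-likelihood test without a block, once with all 6 libraries and once without CDK12KO2; the steps were tested on simulated data. CPM are scaled with TMM factors over 6 libraries, with a prior count of 2 on the log2 scale. SE is the log2 fold change divided by the square root of F. Alternatives were DESeq2 size factors, no filter, at least 50 counts in each library of 1 group, DESeq2 1.42.0, limma 3.58.1 voom, a replicate block, a spline correction for length and GC content (5 degrees of freedom), a threshold of 0.01, the stranded columns and leaving out each library. A 95% Wilson interval of a share of counted reads is at most 0.0211 to 0.0240 percentage points wide to either side, and covers counting error only.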

Additional observations from a re-analysis of the deposited data

How the results depend on the processing

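With all 6 libraries, 0 members were called. The count was 2 with no filter, 1 with at least 50 counts, 4 with DESeq2, 1 with the length and GC correction and 0 to 14 when 1 library was left out, the 14 without CDK12KO2. Of all genes 94 were called, against 363 with no filter, 980 with DESeq2, 173 with the correction, 5 with the replicate block and 4 to 3123 with 1 library left out. Of the further pathway genes 0 were called, against 5, 11 and 2 under the first 3 of these and 0 to 40 with 1 library left out.

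Without CDK12KO2, 14 members were called, against 9 at a threshold of 0.01 and 6 to 18 with a further library left out (6 without CDK12KO1 and 6 without CDK12KO3, where a lone CDK12KO library is assumed to vary like the others). Of all genes 3123 were called, against 1134 to 4703, and of the further genes 40, against 18 to 58. The replicate block gave 21 members, 5540 genes and 64 further genes. Same-numbered libraries deviated together at r = 0.135, 0.194 and 0.0841, against -0.193 to 0.0762 between differently numbered ones. The labels name no pairs, so the main fits used none. Whether replicate numbers mark pairs was not tested. The members' median was -0.0633, -0.0357 with the block and -0.0554 to -0.0258 with a library left out. NQO1 was 0.04 with all libraries and -0.26 (without CDK12KO2) to 0.18 with 1 left out. Without CDK12KO2 the 14 called members kept their sign in all 15 alternatives (14 for ACSL4, too low for the stricter filter). Over single members and alternatives, 456 results kept direction and call with all libraries, 21 gained a call, 22 uncalled values moved and 1 was reversed (NQO1); without CDK12KO2, 410 kept both, 37 lost a call, 19 gained one and 3 moved. The alternatives to all libraries include leaving out CDK12KO2, the fit in which 14 members were called. ACSL4 and the members under 1 CPM per kilobase rest on few reads. The causes were not tested.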

Other observations

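Ratios between members within a library do not depend on scaling to library size; the pairs were chosen after their values were seen and carry no test. The ratio of GCLC to GCLM, the catalytic and modifier subunits of the same enzyme, per kilobase of transcript, was 0.701, 1.32 and 0.739 in CDK12KO libraries 1 to 3, against 1.28, 1.09 and 1.08 in VEC libraries 1 to 3. CDK12KO1 and CDK12KO3 lay below all VEC libraries, and CDK12KO2, where GCLM was low as well, lay above them. The ratio of TXN to TXNRD1, thioredoxin and its reductase, was 5.00, 16.0 and 5.04 in CDK12KO, against 3.31, 4.15 and 3.50 in VEC libraries. The ratio of GPX4 to GSR, the lipid peroxidase and the reductase that restores its glutathione, was 3.67, 16.1 and 3.66 in CDK12KO, against 2.52, 2.65 and 2.40 in VEC libraries. For these 2 ratios every CDK12KO library was above every VEC library. Both set a short transcript over a longer one, and shifts fell with transcript length in all 3 knockout libraries.

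The further gene SLC7A11, the cystine importer that supplies glutathione synthesis, is named here after its values were seen. It had 59.0, 34.0 and 65.8 CPM in CDK12KO libraries 1 to 3, against 44.4, 41.6 and 52.9 CPM in VEC libraries 1 to 3. It was higher without CDK12KO2 (0.43 ± 0.10, edgeR adjusted p = 0.00495), whereas with all libraries the groups overlapped (0.19 ± 0.25, adjusted p = 0.618).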
